A study of Mus musculus with 6 samples.

Results

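The genes described here encode the WNT ligands, their receptors and the machinery that prepares the ligands for release. They were taken as the rows of the deposited gene table whose Ensembl identifier carries one of 36 symbols: 19 WNT ligands, 10 Frizzled receptors, the LRP co-receptors Lrp5 and Lrp6, the alternative receptors Ror1, Ror2 and Ryk, and the ligand-handling genes Porcn and Wls. All 36 symbols matched 1 row each, among 51912 rows in the table. A gene was called detected when its mean over the replicates reached 1 CPM (the count relative to the library total, after TMM scaling) at either time. Of the 36 members 19 met that limit, beside 13563 of all 51912 rows.

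The samples were mRNA libraries of the established mouse embryonic stem cell line R1. Every culture started in 2iLIF, a medium that holds naive pluripotency with inhibitors of MEK and GSK3 and the cytokine LIF, and was then given the serum-free medium N2B27 with FGF2 at 100 ng/ml. One group was collected after 24 h of FGF2 and the other after 48 h, with 3 replicates each. Libraries from the starting medium or from N2B27 without FGF2 were not analysed here, so FGF2, the change of medium and time in culture cannot be told apart. It is not stated whether replicates were separate cultures, so the p-values measure only the spread between these libraries, which may be technical.

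WNT proteins are secreted, lipid-modified signals. Porcupine (Porcn) attaches the lipid in the endoplasmic reticulum and Wntless (Wls) carries the ligand to the cell surface. At the receiving cell a Frizzled protein with LRP5 or LRP6 passes the signal to Dishevelled, which stops GSK3 and its partners from destroying beta-catenin. ROR1, ROR2 and RYK receive mainly signals that do not go through beta-catenin. In mouse embryonic stem cells the GSK3 inhibitor of 2i acts below the receptors, and WNT signalling is known for favouring the naive state.

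Total estimated counts were between 19574969 and 23133148 per library. Spearman correlations of log2 CPM across genes ranged from 0.9965 to 0.9968 within a time point and from 0.9730 to 0.9754 across time points, and no library stood apart from its group. All 10 genes of the pluripotency list (among them Pou5f1, Sox2 and Nanog) were detected. Their sum was 5705-5780 CPM at 24 h and 4348-4438 CPM at 48 h, and the list moved in both directions. Nanog, Esrrb and Zfp42 were 3.985-fold, 2.78-fold and 2.09-fold lower at 48 h, while Lin28a and Utf1 were 2.93-fold and 1.51-fold higher. The formative list (Fgf5, Otx2, Dnmt3b, Pou3f1) summed to between 188 and 213 CPM at 24 h and between 1705 and 1740 CPM at 48 h. Of markers of other cells, 1 of 6 primitive streak, 5 of 5 neural, 2 of 5 primitive endoderm, 1 of 5 trophoblast and 4 of 6 fibroblast genes were detected. The neural list summed to 127-136 CPM at 24 h and 145-157 CPM at 48 h. In that sum the transcription factor genes Sox1 and Pax6 were 2.49-fold and 2.94-fold higher at 48 h, and the abundant Tubb3 and Nes were lower (all called). Zic1 was 3.64-fold higher, with 11, 7 and 9 counts at 24 h and 35, 39 and 28 at 48 h. Zic1 had enough counts to be tested only through its 48 h libraries, so its call is no support for a rise. Meanwhile the primitive endoderm list went from 46.7-54.4 to 14.1-14.2 CPM, the trophoblast list from 7.27-7.79 to 2.01-2.39 CPM, the primitive streak list from 15.8-18.5 to 12.8-14.9 CPM and the fibroblast list from 4.0-6.01 to 3.03-4.42 CPM. The fibroblast sum also held opposite changes: Dcn had 0 counts in every 24 h library and 23, 25 and 32 at 48 h, Col1a1 and Pdgfrb fell by 1.76 and 1.80 on the log2 scale, and Lum had 0 counts in every library. Col1a1 had 16, 21 and 30 counts at 24 h and 4, 9 and 7 at 48 h. Dcn could be tested only through its 48 h libraries and Col1a1 only through its 24 h libraries, so their calls are no support for a change. Single genes made up most of the primitive endoderm, trophoblast and primitive streak sums. These were Lama1 (43.1 to 10.8 CPM on average), Tfap2c (6.59 to 1.55) and Eomes (16.1 to 13.1). Gata4 fell from 5.84 to 2.25 CPM, and the other genes of these lists were below the detection limit at both times. Mitochondrial genes took 3.08% to 3.19% of counts at 24 h and 2.76% to 2.94% at 48 h. The sums of the pluripotency, formative, neural, primitive endoderm, primitive streak and trophoblast lists did not overlap between the times, and their part in the results below was not tested. In bulk libraries, fewer cells of a type and less RNA per cell cannot be told apart.

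The receptor side of the pathway was detected in full and the ligand side hardly at all. All 15 receptors and co-receptors reached 1 CPM, as did Porcn and Wls, but only 2 of the 19 ligands did, Wnt5a and Wnt5b. The 19 ligands together gave 127, 99 and 130 estimated counts in the 24 h libraries and 149, 138 and 148 in the 48 h libraries. The 10 Frizzled genes gave between 5602 and 7264 counts per library. Frizzled mRNA therefore outnumbered ligand mRNA in reads in each of the 6 libraries, on a scale that is not corrected for gene length.

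The 48 h libraries were compared with the 24 h libraries to ask how the members changed on the second day of FGF2. The fit covered all genes together, and 20 members had enough counts to be tested. The others were 16 ligands. Calls required an adjusted p below 0.05 (edgeR, quasi-likelihood). Of the 20 members, 15 were called, which is 75% beside 62.8% of all 14889 tested genes. By direction 7 were higher at 48 h (35.0%, beside 30.9% of all genes) and 8 were lower (40.0%, beside 31.9%). These shares lie near those of all genes and are no result about the family. The 24 h and 48 h libraries did not overlap for 15 of the 20 tested members and for 9966 of the 14889 tested genes. A gap between the groups, given below for single genes, was thus common. Changes of at least 2-fold were called for 7 of the 20 members, or 35.0%, beside 11.2% of all tested genes. Wnt5a reached the detection limit at 48 h only, and Wnt9a was tested without reaching it. The median log2 fold change (48 h over 24 h) of the tested members was -0.043, beside -0.0063 for all tested genes, and the median size of the change was 0.43 beside 0.26. Members were chosen with earlier results of these data known. The 2-fold share and the median size are therefore no result about the family and were not tested.

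**Figure D1:**
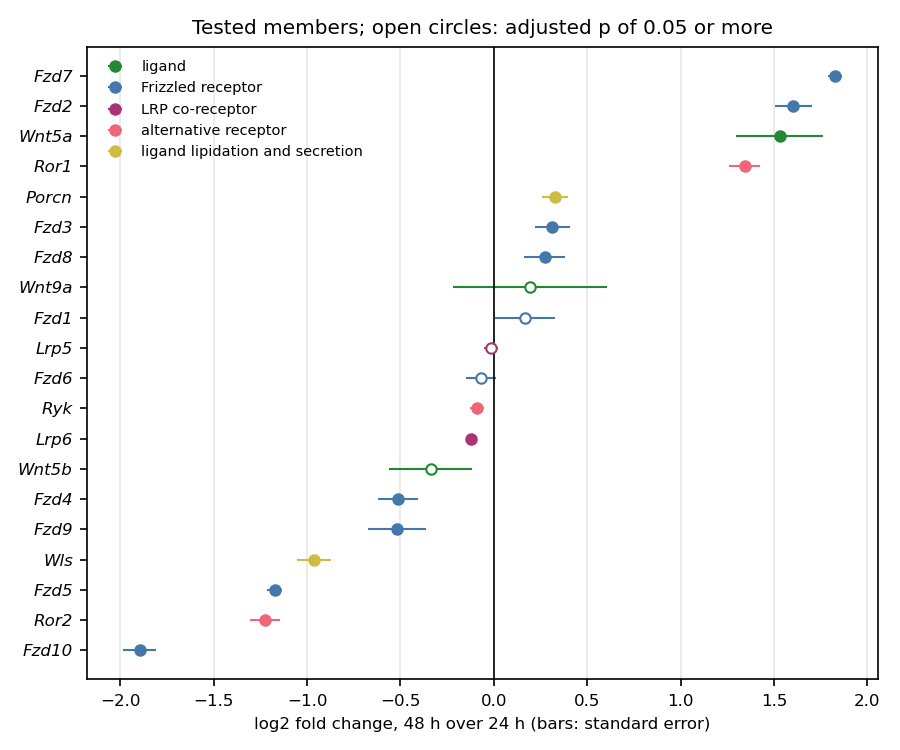
Log2 fold changes of the 20 tested members, 48 h over 24 h, on the x axis, with bars for the standard error and colours for the role of each gene. Filled circles mark an adjusted p under 0.05. Fzd7 (1.83) and Fzd10 (-1.90) lie at the ends.

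Frizzled proteins are membrane receptors whose extracellular cysteine-rich domain binds WNT. Of the 10 genes, 4 rose (Fzd7, Fzd2, Fzd3 and Fzd8), 4 fell (Fzd10, Fzd5, Fzd9 and Fzd4) and Fzd1 and Fzd6 were not called. These 40.0% in each direction stand beside 30.9% of all tested genes higher and 31.9% lower, and nothing about the family is read from the counts. Its median log2 fold change was 0.049, with a median size of 0.52.

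Fzd7 (ENSMUSG00000041075; GRCm38 chr1:59482424-59486955, plus strand) is the Frizzled most often linked to pluripotent cells. It stood at 55.9, 52.6 and 51.9 CPM in the 24 h libraries and at 193, 195 and 181 CPM in the 48 h libraries. All 48 h libraries lay far above all 24 h libraries. Fzd7 rose 3.55-fold, or by 1.83 on the log2 scale (SE 0.036; adjusted p = 1.92e-16, edgeR).

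Fzd5 (ENSMUSG00000045005; chr1:64730558-64737751, minus strand), a receptor needed for yolk sac vessel growth in the mouse, moved the other way. Its level was 157, 154 and 171 CPM at 24 h and 72.9, 69.0 and 71.7 CPM at 48 h, with no overlap. Fzd5 was 2.26-fold lower at 48 h (log2 fold change -1.17, SE 0.038, adjusted p = 1.1e-13). Exons of Fzd5 overlap 1233 bases of Gm38058, an unclassified transcript on the opposite strand, which had 2 to 7 counts per library against at least 1512 for Fzd5. The use of strand in counting is not given in the sources used here.

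The 250 bases before the RefSeq start sites of Fzd7 and Fzd5 (GRCm38.p6) are shown because these genes were the most abundant of the family and moved in opposite directions. They were searched on both strands for CTTTGA and CTTTGT, core words of the sites that TCF and LEF factors bind, and matches are in capitals. The Fzd7 window (chr1:59481897-59482146, plus strand) held 1 match, CTTTGT on the strand opposite to the gene, beginning 129 bases before the start. The Fzd5 window (chr1:64737751-64738000, minus strand) held 0. The sequences read 5′ to 3′ on each gene's strand.
Fzd7: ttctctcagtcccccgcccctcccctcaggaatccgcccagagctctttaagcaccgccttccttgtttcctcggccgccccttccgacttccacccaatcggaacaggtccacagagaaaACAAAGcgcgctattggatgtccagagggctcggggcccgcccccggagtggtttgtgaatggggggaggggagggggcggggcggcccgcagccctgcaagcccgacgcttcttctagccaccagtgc
Fzd5: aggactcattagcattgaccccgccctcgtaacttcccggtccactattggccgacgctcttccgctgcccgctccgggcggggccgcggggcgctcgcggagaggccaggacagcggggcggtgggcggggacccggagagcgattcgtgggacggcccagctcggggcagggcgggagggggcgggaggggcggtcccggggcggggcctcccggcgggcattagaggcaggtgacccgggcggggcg
Both windows were rich in G and C, at 65.2% for Fzd7 and 76.4% for Fzd5, beside a median of 52.4% over all 32851 RefSeq windows of that length. CTTTGA occurred in 13.8% of all windows, CTTTGT in 16.5% and either word in 27.6%. Of the 28 windows that the table holds for 25 members, 7 had either word, in Fzd1, Fzd7, Ror1, Ror2, Wnt5b, Wnt8b and Wnt11. A match describes letters and not a bound site. The bicoid-type word TAATCC, the core that OTX2 recognises, was in the windows of Fzd1 and Wnt11 (6.25% of all windows), and the POU octamer ATGCAAAT was in none of the 28 (1.60% of all windows). The members' windows had a median of 71.2% G and C and a CpG content of 0.76 of that expected from base composition, beside 0.37 for all windows. The median CpG ratio was 0.78 over the 18 ligand windows and 0.75 over the other 10.

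Fzd10 (ENSMUSG00000081683; chr5:128600844-128604093, plus strand) had the largest fall of the members tested. It was at 21.9, 20.98 and 24.0 CPM at 24 h and at 6.53, 5.71 and 5.72 CPM at 48 h. This was 3.72-fold lower (log2 fold change -1.90, SE 0.087, adjusted p = 9.31e-12). Fzd2 (ENSMUSG00000050288; chr11:102604396-102608058, plus strand), which can act with ROR proteins in WNT5A signalling, rose from 6.30, 7.07 and 7.16 CPM to 18.0, 22.7 and 21.8 CPM. On the log2 scale Fzd2 changed by 1.60 (SE 0.099, adjusted p = 4.41e-10). In neither gene did the groups overlap.

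The other Frizzled genes moved less. Fzd4, the receptor for norrin as well as WNT, fell from 8.07 ± 0.47 to 5.66 ± 0.66 CPM (SD over 3 libraries; log2 fold change -0.51, adjusted p = 0.000557). Fzd9 fell from 3.57 ± 0.18 to 2.49 ± 0.37 CPM (-0.52, adjusted p = 0.00792), a call that DESeq2 did not make (adjusted p = 0.0506, in a range of 0.00375 to 1 over the alternatives). Fzd3, which acts in axon guidance and planar cell polarity, rose from 7.33 ± 0.32 to 9.10 ± 0.63 CPM (0.31, adjusted p = 0.0078). Fzd8 rose from 5.38 ± 0.28 to 6.49 ± 0.61 CPM (0.27, adjusted p = 0.0402). Leaving out the 24 h replicates 2 or 3 removed that call (adjusted p = 0.0971 and 0.106), as did leaving out the 48 h replicates 1 or 3 (0.136 and 0.104) and using DESeq2 (0.147). Over all alternatives the adjusted p ran from 0.0163 to 1.

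Fzd1 was at 3.05 ± 0.46 and 3.42 ± 0.47 CPM and Fzd6 at 11.99 ± 0.49 and 11.4 ± 0.67 CPM (SD, n = 3). The 95% interval of the log2 fold change ran from -0.17 to 0.51 for Fzd1 and from -0.24 to 0.10 for Fzd6. A 2-fold change lies outside both intervals.

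**Figure D2:**
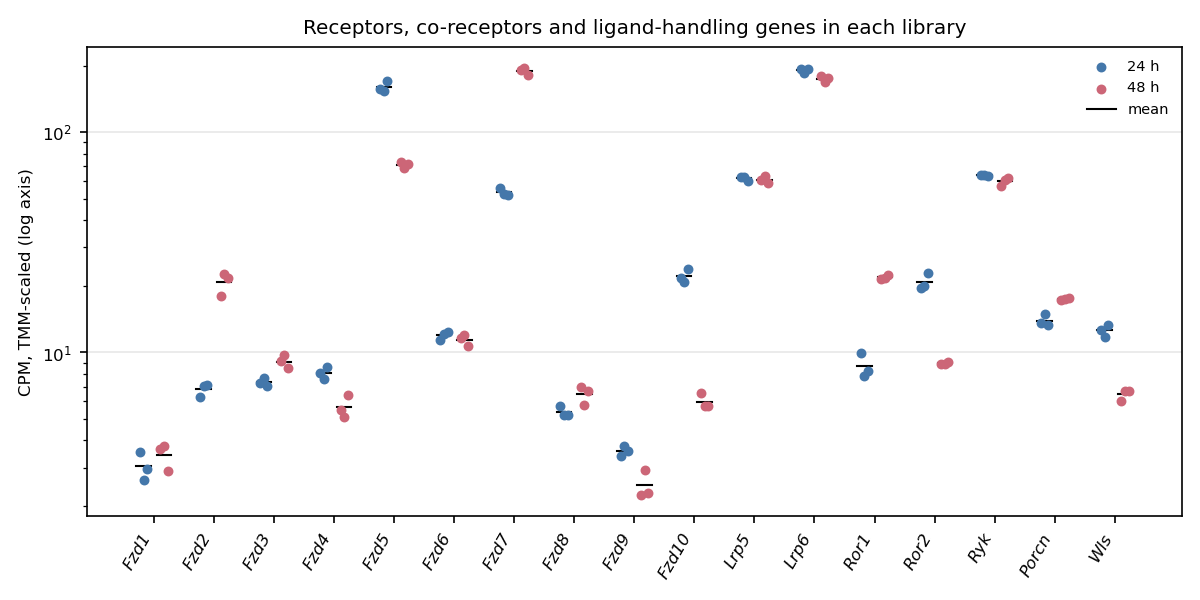
Level of each receptor, co-receptor and ligand-handling gene in the 6 libraries, in TMM-scaled CPM on a log axis. Points are libraries and bars are group means. The 24 h and 48 h points of Fzd2, Fzd5, Fzd7, Fzd10, Ror1, Ror2 and Wls lie well apart, while those of Fzd1, Fzd6 and Lrp5 overlap.

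To compare levels between genes, counts were divided by the length of the longest annotated transcript and scaled to the same sum in every library (TPM, a length-corrected level computed here and not by the authors). The 10 Frizzled genes summed to 127 ± 4.21 TPM at 24 h and to 163 ± 5.09 TPM at 48 h (SD, n = 3), with no overlap between the groups. Within that sum the leading receptor changed. Fzd5 held 44.4%, 44.5% and 46.3% of Frizzled TPM in the 24 h libraries and 15.7%, 14.6% and 16.0% in the 48 h libraries. Fzd7 held 24.1%, 23.3% and 21.5% at 24 h and 63.2%, 62.9% and 61.5% at 48 h. The order of the pair was thus the same in all 3 libraries of a time and opposite between the times. The ratio of Fzd7 to Fzd5 in TPM was 0.510 ± 0.041 at 24 h and 4.06 ± 0.23 at 48 h (SD, n = 3).

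Fzd10 came next at 24 h with 13.3% ± 0.47 and held 2.76% ± 0.21 of the sum at 48 h. Fzd2 came next at 48 h with 8.51% ± 1.05, against 3.63% ± 0.26 at 24 h. The share of Fzd6 went from 5.39% ± 0.22 to 3.96% ± 0.13, although its own level was not called changed. The other 5 genes each held at most 3.03% on average at either time. These shares follow from the same counts as the fold changes and are given as a description. With the union of all exons as the length, Fzd7 held 23.08% at 24 h and 62.8% at 48 h.

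**Figure D3:**
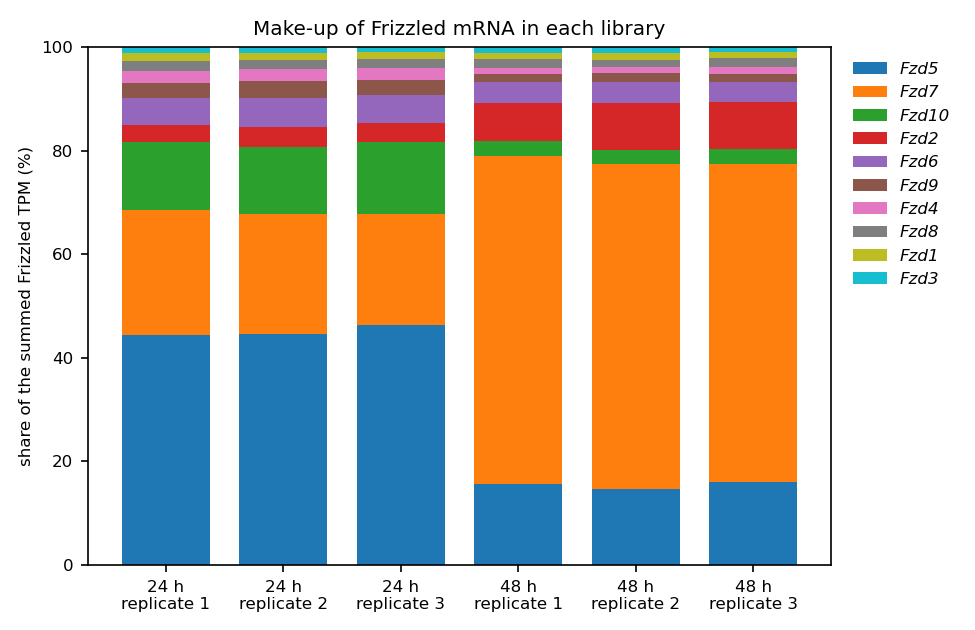
Share of each Frizzled gene in the summed Frizzled TPM (y axis, percent) in each of the 6 libraries (x axis). Fzd5 is the largest part of all 24 h bars and Fzd7 of all 48 h bars.

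The co-receptors were among the most abundant members and changed little. Lrp6, one of the pair of LDL-receptor-related proteins that bind Axin once WNT is present, was at 193, 186 and 193 CPM at 24 h and at 179, 169 and 177 CPM at 48 h. The groups did not overlap, and Lrp6 fell by 0.12 on the log2 scale (SE 0.026, adjusted p = 0.000652). Lrp5 was at 61.7 ± 1.3 and 60.9 ± 2.38 CPM (SD, n = 3) with overlapping groups. Its log2 fold change was -0.017, with a 95% interval from -0.097 to 0.062 (adjusted p = 0.71).

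The receptor tyrosine kinase-like proteins ROR1 and ROR2, both receptors for WNT5A, moved in opposite directions. Ror1 (ENSMUSG00000035305; chr4:100095791-100444765, plus strand) was at 9.90, 7.85 and 8.21 CPM at 24 h and at 21.5, 21.7 and 22.4 CPM at 48 h. The groups did not overlap, and Ror1 rose by 1.34 on the log2 scale (SE 0.084, adjusted p = 4.98e-10). Ror2 (ENSMUSG00000021464; chr13:53109312-53286124, minus strand) was at 19.56, 20.05 and 22.9 CPM at 24 h and at 8.87, 8.90 and 9.06 CPM at 48 h. Again the groups did not overlap, and Ror2 fell by 1.22 on the log2 scale (SE 0.081, adjusted p = 1.17e-09). In TPM, Ror1 stood at 0.290 ± 0.054 of Ror2 at 24 h and at 1.69 ± 0.019 of it at 48 h (SD, n = 3), so Ror2 was the more abundant of the pair in all 24 h libraries and Ror1 in all 48 h libraries. Ryk, a receptor with an inactive kinase domain, was at 63.8 ± 0.33 and 59.9 ± 2.51 CPM. Its log2 fold change of -0.090 (adjusted p = 0.0432) lost its call with RLE scaling (0.0609), with DESeq2 (0.183) and without any single library other than replicate 3 of 48 h (0.0621 to 0.244), in a range of 0.00182 to 1 over the alternatives.

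The windows before the starts of Ror1 (chr4:100095541-100095790, plus strand) and Ror2 (chr13:53286125-53286374, minus strand) are shown as the second pair that crossed over. Each held 1 of the TCF and LEF words searched above, in capitals: CTTTGA on the opposite strand, beginning 205 bases before the start of Ror1, and CTTTGT on the same strand, beginning 200 bases before the start of Ror2.
Ror1: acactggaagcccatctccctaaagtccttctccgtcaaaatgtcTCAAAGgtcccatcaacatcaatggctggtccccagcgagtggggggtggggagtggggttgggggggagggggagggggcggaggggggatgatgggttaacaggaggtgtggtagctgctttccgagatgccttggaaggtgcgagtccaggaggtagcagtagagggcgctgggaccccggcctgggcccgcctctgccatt
Ror2: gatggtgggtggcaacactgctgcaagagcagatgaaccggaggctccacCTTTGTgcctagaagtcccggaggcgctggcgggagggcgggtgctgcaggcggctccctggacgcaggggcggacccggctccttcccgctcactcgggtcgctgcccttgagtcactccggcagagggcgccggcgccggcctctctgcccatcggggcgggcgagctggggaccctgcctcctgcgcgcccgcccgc
The window of Ror1 had 62.4% G and C and a CpG content of 0.35 of that expected, and that of Ror2 73.2% and 0.72. Of the 4 windows printed, those of both genes that rose and of 1 gene that fell held such a word. The 4 windows were chosen by the change of their genes, and either word occurs in 27.6% of all windows. Nothing about direction is read from the matches.

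The ligand-handling genes also moved in opposite directions. Wls (ENSMUSG00000028173; chr3:159839672-159938664, plus strand) was at 12.7, 11.8 and 13.4 CPM at 24 h and at 6.02, 6.67 and 6.71 CPM at 48 h. Wls was 1.95-fold lower at 48 h (log2 fold change -0.96, SE 0.091, adjusted p = 1.01e-07). Porcn (ENSMUSG00000031169; chrX:8193848-8206525, minus strand) was at 13.6, 14.9 and 13.3 CPM at 24 h and at 17.2, 17.5 and 17.6 CPM at 48 h. Porcn was 1.25-fold higher at 48 h (log2 fold change 0.33, SE 0.071, adjusted p = 0.00073). Neither gene's groups overlapped. The ratio of Wls to Porcn in TPM went from 0.671 ± 0.081 to 0.273 ± 0.014 (SD, n = 3), or from 0.311 to 0.126 with the union of exons as the length.

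By TPM the receptors ran, at 24 h, from Fzd5 (57.5 ± 3.21), Ryk (51.4 ± 0.28) and Lrp6 (50.4 ± 1.06) through Fzd7 (29.2 ± 1.18), Lrp5 (17.2 ± 0.37), Fzd10 (16.96 ± 1.16) and Ror2 (13.0 ± 1.13) to Fzd1 (1.80 ± 0.27) and Fzd3 (1.43 ± 0.06; SD, n = 3). At 48 h the order began with Fzd7 (102 ± 4.51), Ryk (47.5 ± 1.83), Lrp6 (45.5 ± 1.36), Fzd5 (25.1 ± 0.69), Lrp5 (16.7 ± 0.73), Fzd2 (13.8 ± 1.65) and Ror1 (9.25 ± 0.16). Lrp5 and Fzd10 at 24 h, Fzd9 and Ror1 at 24 h, and Ryk and Lrp6 at 48 h, overlapped in their libraries. With the union of exons as the length, Ryk and Lrp6 overlapped at 24 h too, and Fzd10 lay above Lrp5.

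Among the ligands, Wnt5a and Wnt5b had the most counts. Wnt5a (ENSMUSG00000021994; chr14:28504750-28527448, plus strand), the main ligand of ROR receptors, had 18, 14 and 18 counts at 24 h and 57, 46 and 46 at 48 h. In CPM these were 0.90, 0.683 and 0.762 against 2.62, 2.10 and 2.07, with no overlap. Wnt5a was 2.89-fold higher at 48 h (log2 fold change 1.53, SE 0.23, adjusted p = 2.67e-05), and it kept that direction and call in the 16 alternatives, between 1.41 and 1.63. Exons of Wnt5a share 358 bases with the antisense gene Gm2670, which had at most 2 counts in a library.

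Wnt5b (ENSMUSG00000030170; chr6:119432531-119544347, minus strand) was at 2.10, 2.00 and 1.74 CPM at 24 h and at 1.38, 1.23 and 1.98 CPM at 48 h, and the groups overlapped. The log2 fold change was -0.34, with a 95% interval from -0.81 to 0.13 (adjusted p = 0.198). Wnt9a was the third ligand with enough counts to test, at 0.633 ± 0.338 and 0.730 ± 0.247 CPM (SD, n = 3; log2 fold change 0.19, 95% interval from -0.68 to 1.06). Its direction turned when the 24 h replicate 2 was left out (-0.18) or the 48 h replicate 1 (-0.11).

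**Figure D4:**
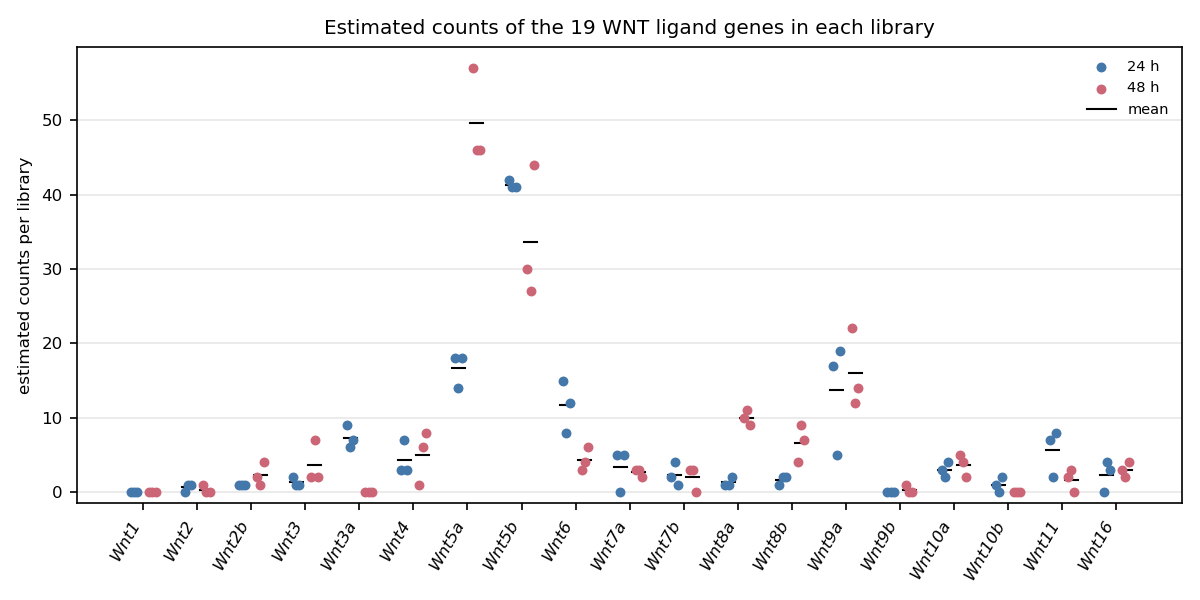
Estimated counts of the 19 WNT ligand genes in each library (y axis, counts not scaled for depth). Points are libraries and bars are group means. Wnt5a and Wnt5b are the tallest, and Wnt3a sits at 0 in all 48 h libraries.

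Below the detection limit, a few ligands had 95% counting intervals that left out no change. They were picked among all undetected ligands, and the intervals are not adjusted for that choice. Wnt3a, the ligand most used to activate beta-catenin signalling in culture, had 9, 6 and 7 counts at 24 h and 0 in each 48 h library. The 95% exact interval of its ratio, 48 h over 24 h, ran from 0 to 0.178. Wnt8a, an embryonic ligand of early gastrulation, had 4 counts at 24 h and 30 at 48 h over the group, a ratio of 7.30 with an interval of 2.57 to 28.5. Wnt8b went from 5 to 20 counts (ratio 3.90, interval 1.42 to 13.3) and Wnt6 from 35 to 13 (0.362, interval 0.176 to 0.701). Wnt11, a ligand mostly linked to signals outside beta-catenin, went from 17 to 5 counts (0.286, interval 0.0826 to 0.809). These intervals cover counting error only. With no filter on low counts, edgeR tested 18 ligands and gave adjusted p of 2.66e-05 for Wnt3a, 0.000598 for Wnt8a, 0.0201 for Wnt6, 0.0471 for Wnt8b and 0.0952 for Wnt11. In that fit 5 of the 18 ligands were called, Wnt5a included, or 27.8% beside 37.4% of the 26148 genes tested, so the count is no result about the ligands.

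The remaining ligands had at most 15 counts in a group. Wnt1, which acts at the midbrain-hindbrain boundary, had 0 counts in every library, which allows up to 3 counts over a group, or 0.0468 CPM over the 24 h group and 0.0456 CPM over the 48 h group. Wnt9b had 1 count in all 6 libraries together, Wnt2 and Wnt10b had 3 each, and Wnt2b had 10. Wnt3, a primitive streak ligand of the embryo, went from 4 to 11 counts over the group (ratio 2.68, interval 0.794 to 11.5). For Wnt4, Wnt7a, Wnt7b, Wnt10a and Wnt16 the group sums lay between 6 and 15 counts, and differences smaller than a few fold were not detectable at this depth.

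Several ligands lie as neighbours in the genome, and their counts are given side by side. Wnt3a and Wnt9a lie 16175 bases apart on chromosome 11: Wnt3a went from 22 to 0 counts over the group while Wnt9a had 41 and 48. Wnt6 and Wnt10a, 6193 bases apart on chromosome 1, had 35 and 13 counts against 9 and 11. Wnt3 and Wnt9b (24328 bases apart, chromosome 11) and Wnt1 and Wnt10b (11706 bases apart, chromosome 15) had at most 11 counts at either time. Whether the members of a pair differed in their change was not tested.

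The other genes of the pathway give the setting. Of 81 listed genes, 66 were tested, and 21 were higher at 48 h and 26 lower, with a median log2 fold change of -0.0087. The called share, 71.2%, lies near that of all genes (62.8%). For each list below, the shares to read the counts against are 30.9% of all tested genes higher and 31.9% lower. Of the 8 tested secreted antagonists, which bind WNT or its receptors outside the cell, 1 rose and 5 fell, with a median of -1.04. Some that fell were below the detection limit and passed the count filter only through their 24 h counts. Their calls are no support for a fall, and they enter this median. Sfrp1, which binds WNT proteins, fell from 179 to 52.5 CPM on average (log2 fold change -1.77, adjusted p = 1.92e-16). Sfrp2 of the same family rose from 5.28 to 10.9 CPM (1.04, adjusted p = 8.92e-08). In the receptor turnover and R-spondin list 0 rose and 3 of 8 fell, among them the R-spondin receptor Lgr6, from 2.17 to 0.745 CPM (-1.54). Another of the 3 was below the detection limit and passed the filter only through its 24 h counts, so its call is no support for a fall.

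Of the 7 tested glypicans and ligand-side cofactors 3 rose and 1 fell (42.9% and 14.3%). Of 20 cytoplasmic genes 8 were higher and 7 lower (40.0% and 35.0%), with a median of 0.0092. Of 12 nuclear factors 5 were higher and 6 lower (41.7% and 50.0%). Among those lower, a gene with few counts passed the filter only through its 24 h counts, so its call is no support for a fall. Lef1, a transcription factor that binds DNA for beta-catenin, had the largest rise of the called pathway genes that averaged 1 CPM or more, from 22.7 to 199 CPM (3.13, adjusted p = 1.6e-17). The planar cell polarity list had 4 higher and 4 lower of 11 tested (36.4% each way). Its 2 Prickle genes, cytoplasmic polarity proteins, differed in sign: Prickle2 fell from 18.3 to 4.22 CPM (-2.11) and Prickle1 rose from 2.09 to 4.46 CPM (1.09). The 6 genes named from these lists were chosen by the size of their change.

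**Figure D5:**
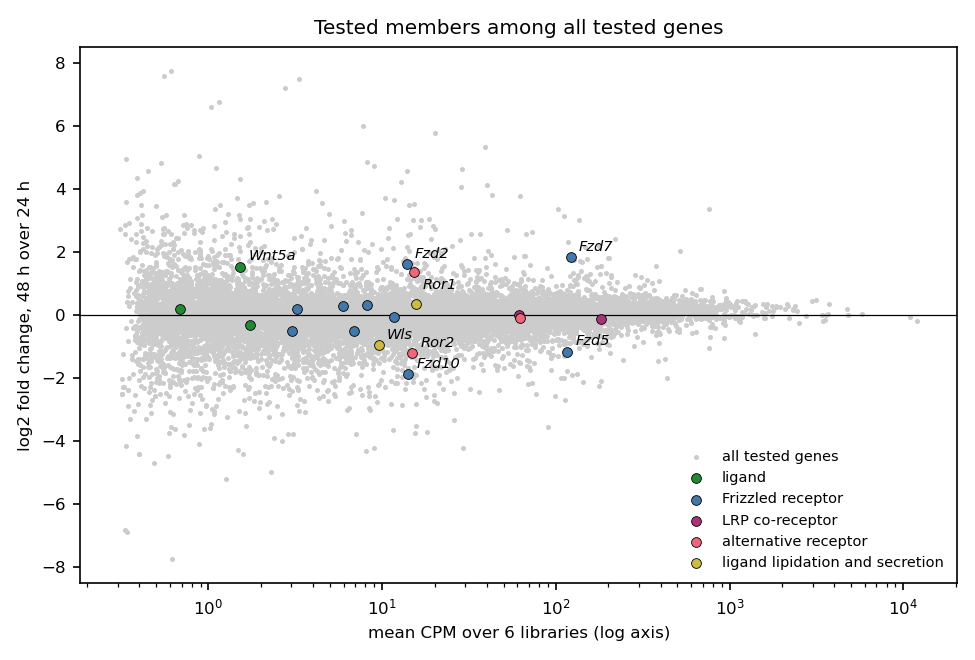
Log2 fold change (y axis, 48 h over 24 h) against mean CPM (x axis, log) of the 14889 tested genes in grey and of the 20 tested members in colour by role. Fzd7 and Fzd5 lie above 100 CPM on opposite sides of 0, and Fzd2, Ror1, Ror2 and Fzd10 near 15 CPM.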

How the data were processed

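The table deposited by the authors gives RSEM estimated counts for each Ensembl gene in 6 libraries, with no scaling for depth or length. The submitters' processing notes name cutadapt 1.9.1, STAR 2.5.2, RSEM 1.3.0 and the build GRCm38. Which annotation was used, whether counting was stranded and whether rows were filtered is not given in the sources used here. Every column matched 1 sample title. Symbols, positions and lengths came from GENCODE M21 (GRCm38), which held 51719 of the 51912 identifiers. The 36 members had whole-number counts in every library.

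Counts were rounded and filtered with edgeR's filterByExpr (minimum count 10), which kept 14889 genes. They were scaled by TMM and compared by the quasi-likelihood test of edgeR 4.0.16 in R 4.3.3, with Benjamini-Hochberg adjustment over all tested genes. The standard error is the size of the fold change over the square root of F, and intervals use its t distribution. The code was tested on simulated data. The alternatives used DESeq2 1.42.0, limma 3.58.1 (voom), other scalings and filters, unrounded counts, glmTreat against 1.5-fold, a threshold of 0.01, a replicate block, and each library left out. Promoter sequences are from a set of RefSeq windows (GRCm38.p6). The set used here covered 25 of the 36 members.

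Members and lists were chosen with earlier results of these data known. Every member may be named. Of the other pathway genes, the 3 largest rises and 3 largest falls among called genes averaging 1 CPM or more are named.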

Additional observations from a re-analysis of the deposited data

How the results depend on the processing

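Counts of called genes stayed within 1.5 times under all alternatives but 1. With glmTreat against 1.5-fold, 1894 genes were called (740 higher, 1154 lower), 8 members (4 higher, 4 lower) and 15 other pathway genes (5 higher, 10 lower); that test asks for a larger change by construction. The 8 members were Fzd2, Fzd5, Fzd7, Fzd10, Ror1, Ror2, Wls and Wnt5a, and each of them kept its direction and call in every alternative run. The other alternatives called 12 to 18 members. A detection limit of 0.5 CPM gave 4 ligands and a limit of 2 CPM gave 1, while 15 receptors were detected under each limit. Leaving out 1 library turned the direction of 2 genes that were not called: Wnt9a ranged from -0.18 (without the 24 h replicate 2; -0.11 without the 48 h replicate 1) to 0.433, and Lrp5 from -0.043 to 0.012 (without the 48 h replicate 3). Of 319 values of single members under the alternatives, 291 kept direction and call, 25 lost the call and 3 turned direction. Wnt8a was tested and called without any one 24 h library or the 48 h replicate 3. Wnt6 was tested and called without the 24 h replicate 2 or the 48 h replicates 2 or 3. With a smaller group the filter asks for fewer libraries. Wnt8a then passed it only through its 48 h counts and Wnt6 only through its 24 h counts. These calls are therefore no support for a change. Library size as the only scaling put the all-gene median at -0.067 in place of -0.0063 on the log2 scale, and 39.9% in place of 49.2% of called genes were then higher at 48 h, and Fzd8 lost its call there. With the replicate block, 9235 genes and 15 members were called, and no member's call changed. Deviations of same-numbered libraries correlated at -0.046, -0.043 and -0.0085, so the numbers did not pair them. Depth limits the ligands: 16 of 19 had too few counts to test.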
